A study of Arabidopsis thaliana with 24 samples.

Results

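The transcripts described here are those of the Arabidopsis thaliana chloroplast genome, taken as every feature of the count table whose identifier carries the chloroplast prefix ATCG and that had 10 or more counts in at least 3 libraries. All 134 features with that prefix met the rule, of 38194 features in the table. The third-highest count of a member was 18 at the lowest, so no feature lay just outside the rule. The samples were detached leaves 1 and 2 of ecotype Columbia-0 plants, wild type as far as the labels say, grown for 10 d in continuous light of 75 µE at 21 °C. Each sample was a pool of leaves that had been surface sterilised and shaken in Murashige and Skoog salts with 5.0% glucose and dimethyl sulfoxide. Mock leaves stayed in this buffer for 8 h. Stimulus leaves received in addition 20 µM bikinin, an inhibitor of the GSK3-like kinases that restrain the brassinosteroid response, 0.5 µg/mL kinetin, a cytokinin, and 2.5 µg/mL of the synthetic auxin dichlorophenoxyacetic acid. Cordycepin (1 mM), an adenosine analogue that ends RNA chains, was then added to both, and leaves were frozen at 0, 15, 60 or 240 min. There were 3 libraries for each of the 8 groups, numbered 2, 3 and 4, and 24 in all.

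Chloroplasts keep a small genome of bacterial origin that encodes core proteins of photosynthesis, part of the chloroplast ribosome and RNA polymerase, and the transfer and ribosomal RNAs. It is read by a bacterial-type polymerase, whose core is encoded in the chloroplast and whose sigma factors are encoded in the nucleus, and by phage-type polymerases encoded in the nucleus. Many chloroplast transcripts are made as long joint precursors and then cut, and their levels depend on nuclear-encoded ribonucleases and RNA-binding proteins. The libraries were made from total RNA, not from RNA with poly(A) tails, after removal of ribosomal RNA with a plant reagent.

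The RefSeq chloroplast annotation holds 129 genes, of which 85 encode proteins, 37 transfer RNAs and 7 ribosomal RNAs, but it does not pair them with the identifiers of the count table. The reference notes describe 6 of the 134 members, and the other 128 are reported here by their counts and levels, with 4 of them named by identifier. Members could therefore not be sorted by kind of transcript. They were sorted by read level in CPM (counts scaled to a common library size), which also depends on the length of a transcript and does not rank genes by expression. Among members with a mean count of at least 100, there were 13 pairs whose split varied little among the libraries (a chi-square of at most 2 per degree of freedom), with 48.2 to 51.8% of a pair in one member. Only pairs whose summed counts were split near evenly were considered, which limited that range in advance. The reads of these 26 members cannot be assigned to one copy, and pairs of lower counts were left out.

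Total counts ran from 24021278 to 34166478 per library, with a median of 28120699. The leaf markers RBCS1A (AT1G67090), LHCB1.3 (AT1G29930) and CA1 (AT3G01500) were at 2182 CPM, 1826 CPM and 92.2 CPM or more in every library. Labels and values were in conflict for the minutes. The decline index is the median log2 change since the 0 min library of the same treatment and number, over 200 nuclear transcripts that fell most in stimulus replicate 2. At 15, 60 and 240 min it was -0.20, -0.07 and -0.17 in mock replicate 2, so that these libraries stayed near their 0 min library. It was -0.35, -1.29 and -0.33 in mock replicate 3, and -1.31, -1.93 and -2.20 in mock replicate 4. In stimulus it was -0.38, -1.67 and -2.44 in replicate 2, the source of the genes, -0.04, -0.51 and -1.69 in replicate 3, and -1.38, -2.10 and -2.19 in replicate 4. A clock score was the log2 level of the evening gene TOC1 less the mean of the 3 morning genes CCA1, LHY and PRR9. Its median over all libraries was then subtracted, so its values are relative to the median library. The score set 8 libraries at 1.69 or more apart from 16 at 0.60 or less. The 8 were replicate 4 of both treatments at 240 min and all libraries numbered 3 but those of mock at 240 min and of stimulus at 0 min. All libraries are reported under their labels, and values within the libraries of low and of high clock score are given beside the results over time points where they could be computed.

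Chloroplast features took 29.2 to 44.9% of all counts in a library, with a median of 35.3%, against 1.24 to 2.09% for mitochondrial features. These counts were held by few features. The 2 most abundant took 40.8 to 54.0% of the chloroplast counts, and the top 10 took 59.5 to 70.5%. In mean CPM over all libraries, 4 members reached 10000 or more, 47 lay from 1000 to 10000, 46 from 100 to 1000, 10 from 10 to 100, and 27 below 10. The smallest mean count of a member was 9.17 and the largest 2585424. Of the 134 members, 24 had a mean count under 100, and 2 had no count in at least 1 library.

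The chloroplast share of counts was lower in stimulus than in mock. At 0 min it was 36.8%, 38.2% and 34.4% in mock replicates 2, 3 and 4, and 30.2%, 29.2% and 31.6% in the same-numbered stimulus libraries. Every stimulus library at 0 min was below every mock library. The group means were 36.5% ± 1.94 (SD, n = 3) in mock and 30.3% ± 1.21 (SD, n = 3) in stimulus. At 15 min the share was 36.8%, 40.5% and 41.0% in mock and 29.4%, 31.5% and 35.4% in stimulus. At 60 min it was 35.4%, 38.9% and 44.0% in mock and 33.9%, 32.2% and 33.1% in stimulus. At 240 min it was 37.2%, 39.1% and 44.9% in mock and 34.6%, 31.1% and 35.2% in stimulus. The groups did not overlap at any of the 4 time points. The mean difference over the time points, stimulus minus mock, was -6.62 percentage points, with p = 1.3e-05 in a two-sided exact permutation test of treatment within time points, which is the smallest p that it can give. Among the 16 libraries of low clock score it was -5.34 points (exact permutation p = 0.00093), and among the 8 of high score -9.13 points (exact permutation p = 0.083), each the smallest p that those libraries allow. Within 1 time point, 3 libraries against 3 gave p = 0.1 at each, the smallest an exact test allows. The tests of treatment over time points take libraries of the same treatment and number as independent. Deviations from group means were shared by number in some groups and not in others, so the p-values over time points may be too small. Nothing in the labels says that libraries came from separate plants or days, so all p-values measure the spread between these samples, which may be technical. In whole leaves, fewer chloroplast-rich cells and less chloroplast RNA per cell cannot be told apart.

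**Figure D1:**
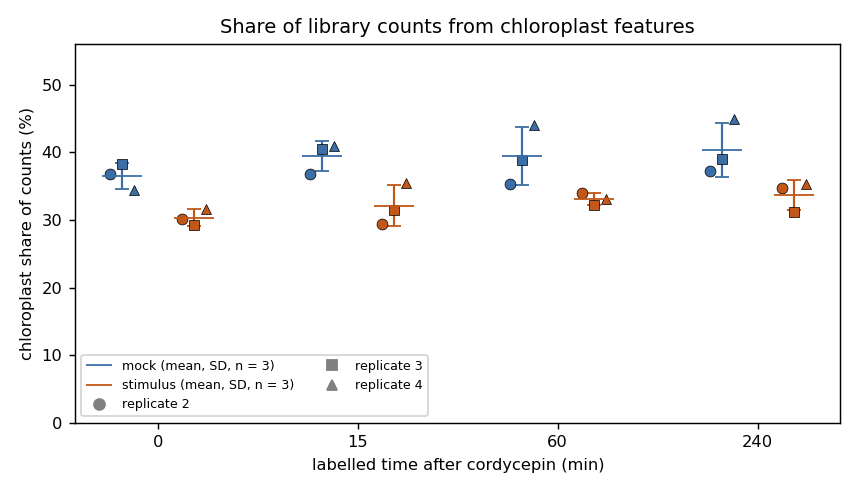
Share of all counts (percent, y axis) from chloroplast features at each labelled time after cordycepin (minutes, x axis, evenly spaced) in mock (blue) and stimulus (orange). Symbols are libraries by replicate number, horizontal lines and bars the mean and SD of 3 libraries, and every stimulus library lies below every mock library of its time point.

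The share was higher at 240 than at 0 min, by 3.61 percentage points over both treatments (exact permutation test within treatments, two-sided, p = 0.03). The means went from 36.5% to 40.4% ± 4.01 (SD, n = 3) in mock and from 30.3% to 33.7% ± 2.21 (SD, n = 3) in stimulus, and with 3 against 3 libraries neither passed by itself (exact p = 0.2 in each). The difference was uneven over the libraries. In mock replicate 4 the share went from 34.4% to 44.9%, while in mock replicate 2, in which the decline index hardly moved, it went from 36.8% to 37.2%. Among the libraries of low clock score the difference was 3.41 points (exact permutation p = 0.042), and those of high score held no stimulus library at 0 min. Without replicate 4 it was 1.90 points, and without the 2 most abundant chloroplast features it was 1.99 points (exact permutation p = 0.17 and p = 0.07). The 2 most abundant features made up 43.9% ± 2.86 (SD, n = 3) of the chloroplast counts in mock at 0 min and 48.2% ± 1.36 (SD, n = 3) in stimulus, and 45.9% ± 4.31 and 50.6% ± 3.16 at 240 min. Over the 4 time points this share was 2.67 points higher in stimulus (exact permutation p = 0.058), which depended on the libraries, with 3.28 points without replicate 3 and 3.69 points without replicate 4 (exact permutation p = 0.032 and p = 0.037) but 1.04 points without replicate 2 (exact permutation p = 0.57). It was 2.20 points higher at 240 than at 0 min (exact permutation p = 0.24), which did not pass.

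At 0 min, after 8 h of treatment, transcripts from the chloroplast genome were lower in stimulus as a group. Of the 131 members that passed the filter on low counts, 95, of which 14 belong to the pairs that share reads, were called lower and 0 higher by edgeR's quasi-likelihood test at an adjusted p under 0.05, against 29.7% of all 20323 features tested called lower and 56.3% called in either direction. The median log2 change of the members was -0.54, and that of all features -0.02. The members ran from -2.24 to 0.04, 2 of them were above 0, and 41 were at -1 or less. In CPM, the 3 stimulus libraries lay below the 3 mock libraries for 88 of the 134 members at 0 min and above them for 0, against 28.8% below and 32.3% above among the 22418 features of the table with 10 or more counts in at least 3 libraries. At 15 min, 45 members had all stimulus libraries below all mock libraries, against 17.3% of those features. The count was 16 at 60 min and 24 at 240 min, against 13% and 16.3% of the features, so the count of lower members was near this background. No member had all stimulus libraries above at any time point, against 18.2%, 13.5% and 17.3% of the features at 15, 60 and 240 min. CA1, a nuclear gene for a carbonic anhydrase of the leaf, was lower in the same libraries, going from 597 CPM ± 26.2 in mock to 136 CPM ± 6.11 in stimulus (SD, n = 3). RBCS1A, a small subunit of Rubisco, was at 5540 CPM ± 1456 and 3643 CPM ± 302, and LHCB1.3, a light-harvesting protein, at 4948 CPM ± 2150 and 3409 CPM ± 443. The groups overlapped for LHCB1.3, with mock replicate 3 at 2616 CPM, below all 3 stimulus libraries, but not for RBCS1A. The part of leaf cell makeup in the lower chloroplast levels was not tested.

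The size of the difference at 0 min varied between and within classes of read level. Among members with a mean below 10 CPM, 23 of the 24 that passed the filter were called lower, with a median log2 change of -1.56, but a weakly counted feature may pass the filter through the mock libraries in which it is high. With no filter, 24 of all 27 such members were called lower, with a median of -1.58, against 19.3% of all features called lower. From 10 to 100 CPM, 4 of 10 were called lower. The median change of all 10 was -0.35, and 4 of them were at -1 or less. From 100 to 1000 CPM, 33 of 46 were called lower with a median of -0.50, and at 1000 CPM or more 35 of 51 with a median of -0.45. Large falls were not confined to low levels. Of the 46, 5 were at -1 or less, down to -1.50, and of the 51, 8 were, down to -1.56. The 2 most abundant features were not called. The first was at 88520, 75250 and 83640 CPM in the mock libraries and at 67120, 65180 and 66840 CPM in the stimulus libraries. The second was at 76510, 71090 and 69320 CPM in mock and 60110, 49970 and 61980 CPM in stimulus. All 3 stimulus libraries were below the 3 mock libraries for both features, although neither passed the test.

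**Figure D2:**
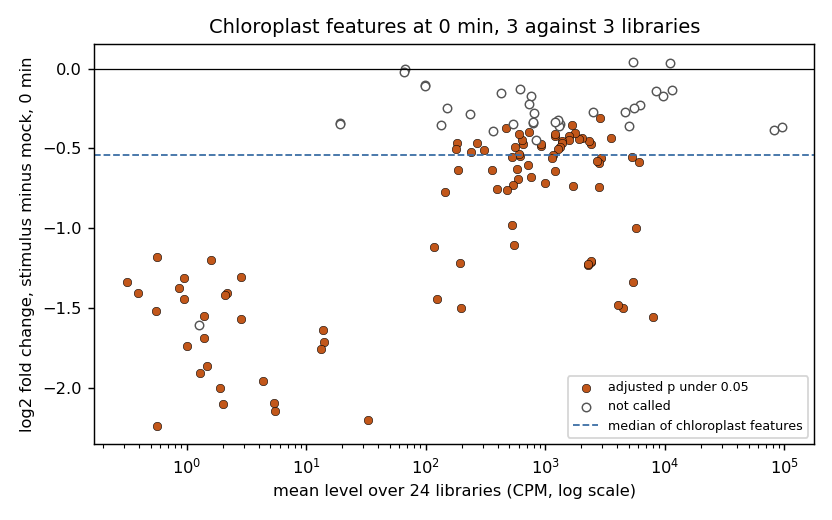
Log2 fold change of each tested chloroplast feature at 0 min, stimulus minus mock (y axis), against its mean level in CPM over 24 libraries (x axis, log scale). Filled points are the 95 features called lower, open points were not called, the dashed line is the median of -0.54, and all 24 tested features below 10 CPM lie at -1 or less.

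These counts depend on how libraries are scaled. With total counts in place of TMM library sizes, which raised the median of all features to 0.23, 51 members were called lower and 0 higher, with a median of -0.30. The share of all features called lower was then 20.3%. Scaled on chloroplast features alone, which sets their common change near 0, 21 were lower and 3 higher. Of those 21, 7 had a mean below 10 CPM, 4 lay from 10 to 100 CPM, 4 from 100 to 1000 CPM and 6 at 1000 CPM or more. Single libraries also moved the count: it was 62 without stimulus replicate 2 and 58 without stimulus replicate 3, and 54 when both libraries numbered 2 were left out. Without mock replicate 3, the library at 0 min that stood apart by clock score, 84 were called lower. Of all features, 25.5%, 24.5%, 24.2% and 29.7% were called lower in these runs with libraries left out, in that order.

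Of the 6 members described in the reference notes, 4 were lower in stimulus at 0 min. ATCG00430, described as protein G of the photosystem II reaction centre, was at 1026, 1284 and 966 CPM in mock and at 735, 670 and 659 CPM in stimulus. The groups did not overlap, and the log2 change was -0.72 ± 0.13 (SE, n = 3 and 3) with an edgeR adjusted p = 0.0015. ATCG00670, the plastid-encoded CLP P subunit of a protease of the chloroplast stroma, was at 3164, 3449 and 2730 CPM in mock and 2368, 2321 and 2481 CPM in stimulus. All stimulus values were below all mock values, with a log2 change of -0.43 ± 0.13 (SE) and an edgeR adjusted p = 0.020. ATCG00660, ribosomal protein L20 of the large chloroplast subunit, was at 318, 506 and 285 CPM in mock and 214, 215 and 251 CPM in stimulus. Mock replicate 3 was the highest of these libraries, and the log2 change was -0.76 ± 0.21 (SE) with an edgeR adjusted p = 0.016. ATCG00530, noted as a proton extrusion protein like CemA, was at 1406, 1550 and 1135 CPM in mock and 1023, 1023 and 1121 CPM in stimulus. Its log2 change of -0.42 ± 0.14 (SE) passed as well (edgeR adjusted p = 0.027). These calls were not equally firm. ATCG00430 was called with any single library left out, while ATCG00530, ATCG00660 and ATCG00670 were not called without stimulus replicate 2 or without stimulus replicate 3. Without mock replicate 3, the log2 change of ATCG00660 was -0.47, and without both libraries numbered 3 it was -0.42. On the scale of chloroplast features alone, none of these members was called, and ATCG00530 and ATCG00670 were at 0.15 and 0.13 above the other chloroplast transcripts.

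The remaining described members are ribosomal proteins. ATCG00750, protein S11 of the small subunit, was at 401, 327 and 264 CPM in mock and 282, 289 and 352 CPM in stimulus. The groups overlapped and the difference did not pass, with a log2 change of -0.15 ± 0.16 (SE, edgeR adjusted p = 0.44), which was above 0 with total counts. ATCG01310, protein L2 of the large subunit, was at 1173, 1134 and 921 CPM in mock and 799, 817 and 1011 CPM in stimulus. It shares its reads evenly with another feature and is uncertain, and its change of -0.35 ± 0.14 (SE) did not pass (edgeR adjusted p = 0.065).

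The largest falls at 0 min among called members with a mean of at least 10 CPM were those of 2 features without a description. ATCG00200 was at 86.0, 137 and 79.7 CPM in mock and 25.2, 24.5 and 18.6 CPM in stimulus, a log2 change of -2.20 ± 0.24 (SE, edgeR adjusted p = 0.00022). ATCG00240 was at 33.7, 42.3 and 35.3 CPM in mock and 12.9, 11.6 and 9.71 CPM in stimulus, a change of -1.76 ± 0.13 (SE, edgeR adjusted p = 5.4e-06). Both groups of values were far apart in each feature. Scaled on chloroplast features alone, both were still called lower, at -1.60 and -1.19.

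Over the 4 time points together, 12 stimulus against 12 mock libraries, 106 of 134 members, with 20 from the pairs that share reads, were called lower and 0 higher by edgeR, with a median of -0.56, against 27.1% of all 21732 features called lower and 53.3% in either direction. All 134 members had a fitted change below 0, but the libraries numbered 2 did not differ this way late: 65 members at 60 min and 66 at 240 min were lower in stimulus replicate 2 than in mock replicate 2, with median differences of 0.04 and 0.01 on the log2(CPM + 1) scale. The count was 64 of 132 among the 16 libraries with a low clock score and 84 of 134 among the 8 with a high score. Without the libraries labelled 240 min it was 108 of 133. Of all features, 25.6%, 17.1% and 25.7% were called lower in these runs, in that order. With total counts, 37 of 134 members were called lower, against 16.1% of all features. Scaled on chloroplast features alone, 3 members were lower and 3 higher. All 6 described members were called lower, from -0.70 for ATCG00430 to -0.37 for ATCG00750, whose adjusted p of 0.0498 lay at the threshold. Without replicate 3, ATCG00430 was the only one of the 6 still called. ATCG00530, ATCG00660 and ATCG00670 also lost the call without replicate 4, and ATCG00750 lost it without any 1 of the 3 replicates.

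The nuclear genes of chloroplast transcription and RNA processing were lower in stimulus at 0 min too. From a list of 28, 26 were called lower, 1 higher and 1 was not called by edgeR, with a median log2 change of -1.06 against -0.02 over all features. In the same test, 29.7% of all features were called lower and 26.6% higher. Of the 6 sigma factors, which direct the bacterial-type polymerase to its promoters, 5 were lower. SIG4 was at 29.7, 44.4 and 32.5 CPM in mock and 6.13, 4.73 and 5.38 CPM in stimulus, a log2 change of -2.76 ± 0.17 (SE, edgeR adjusted p = 5.1e-06). SIGC changed by -1.65 ± 0.18, SIGF by -1.52 ± 0.09, SIG2 by -1.31 ± 0.08 and SIGA by -0.96 ± 0.12 (log2, SE). SIGE, the sigma factor known for transcription of psbD in light, was at 11.2, 8.2 and 12.5 CPM in mock and 12.4, 8.85 and 10.2 CPM in stimulus, so the groups overlapped (log2 change -0.07 ± 0.18, SE, edgeR adjusted p = 0.77), and its change was 0.18 with total counts.

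The 2 nuclear genes of phage-type polymerases differed in direction. SCA3, whose product is targeted to chloroplasts, was at 91.1, 87.2 and 91.1 CPM in mock and 47.1, 46.1 and 47.1 CPM in stimulus, a change of -0.99 ± 0.07 (SE). AT5G15700, whose product is noted for both mitochondria and chloroplasts, was at 13.98, 15.3 and 16.1 CPM in mock and 23.3, 23.1 and 23.2 CPM in stimulus, and rose by 0.56 ± 0.08 (SE, edgeR adjusted p = 0.00035). All 12 genes for proteins associated with the bacterial-type polymerase were lower, with a median of -1.14. The one of smallest p in the list, PTAC7, was at 82.0, 82.4 and 76.5 CPM in mock and 34.6, 33.5 and 35.5 CPM in stimulus, a change of -1.27 ± 0.07 (SE). All 4 ribonuclease genes were lower, with a median of -0.87, and all 4 genes for RNA-binding proteins, with a median of -1.18. Of these, CRB, which binds chloroplast RNA and was the second of the list by p, changed by -1.44 ± 0.08 (SE), from 312 to 119 CPM. Whether chloroplast transcript levels followed these genes was not tested.

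**Figure D3:**
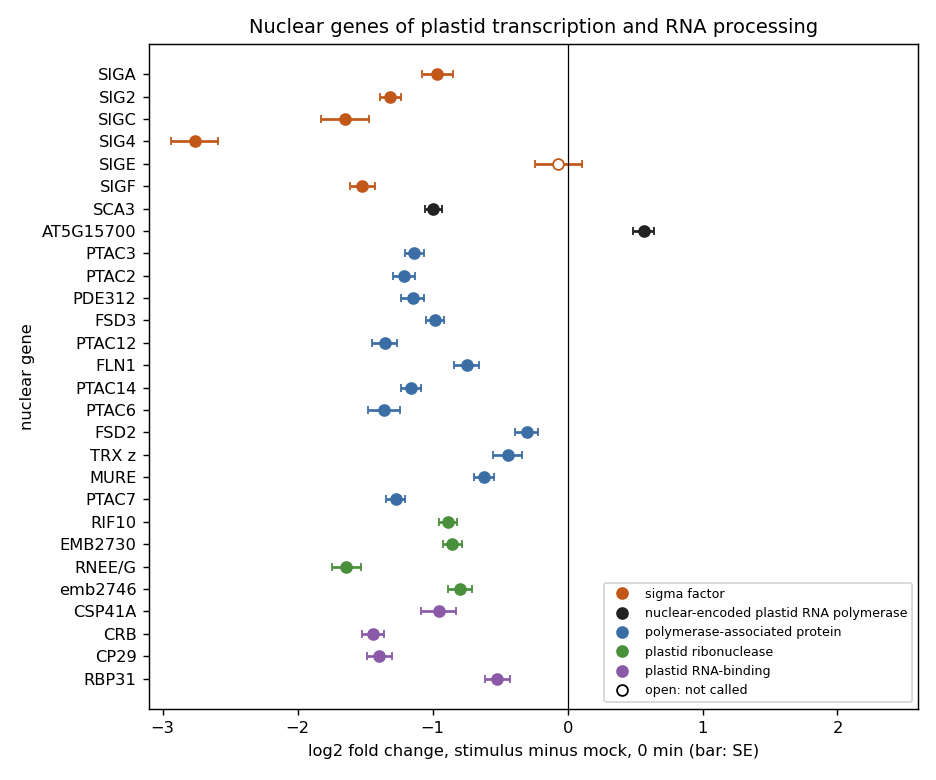
Log2 fold change at 0 min, stimulus minus mock (x axis, bars are SE), of 28 nuclear genes of chloroplast transcription and RNA processing (y axis, RefSeq symbols), coloured by role. Filled points were called by edgeR, SIGE is the open point, and AT5G15700 alone among the 28 lies above 0, where SIGE lies too (0.18) with total counts in place of TMM.

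After cordycepin, chloroplast transcripts moved apart from each other, and the amount differed between series, a series being the 4 libraries of a treatment and number. The change since the series' own 0 min library is given on the scale of log2(CPM + 1), which understates changes of low features. CPM is relative to the rest of the library, so a transcript that stays level while others fall has a rising value. Members 2-fold lower or higher were counted among chloroplast features only, so these counts have no background and are not shown to be particular to them. Of the 97 members with a mean of 100 CPM or more, the median change at 15, 60 and 240 min was -0.04, -0.16 and 0.06 in mock replicate 2, with 0 of them 2-fold lower or higher at 240 min. It was 0.10, 0.39 and 0.02 in mock replicate 3, and 0.70, 1.21 and 1.33 in mock replicate 4, in which, at 240 min, 71 had at least doubled and 11 were 2-fold lower or more. In stimulus it was -0.06, 0.48 and 0.66 in replicate 2, 0.29, 0.25 and 0.31 in replicate 3, and 0.26, 0.49 and 0.61 in replicate 4. The series with the lowest decline index, mock replicate 4 and stimulus replicates 2 and 4, had the highest medians at 240 min. The index genes were picked in stimulus replicate 2, and both values come from CPM of the same libraries, so they are not independent.

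The 37 members below a mean of 100 CPM spread more widely, and their 2-fold counts too have no background over all features. Their median change at 15, 60 and 240 min was -0.59, -0.79 and -0.74 in mock replicate 3, where 14 were at least 2-fold lower at 240 min. In mock replicate 4 it was -1.02, -1.20 and -0.07, and at 240 min 12 were at least 2-fold lower while 11 were at least 2-fold higher. In stimulus replicate 2 it was -0.21, -0.60 and -0.69, with 13 at least 2-fold lower at 240 min. It was 0.23, 0.10 and -0.05 in stimulus replicate 3, and -0.36, -0.37 and 0.74 in stimulus replicate 4, in which 17 were at least 2-fold higher at 240 min. In mock replicate 2 it stayed at -0.10, -0.17 and -0.05.

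**Figure D4:**
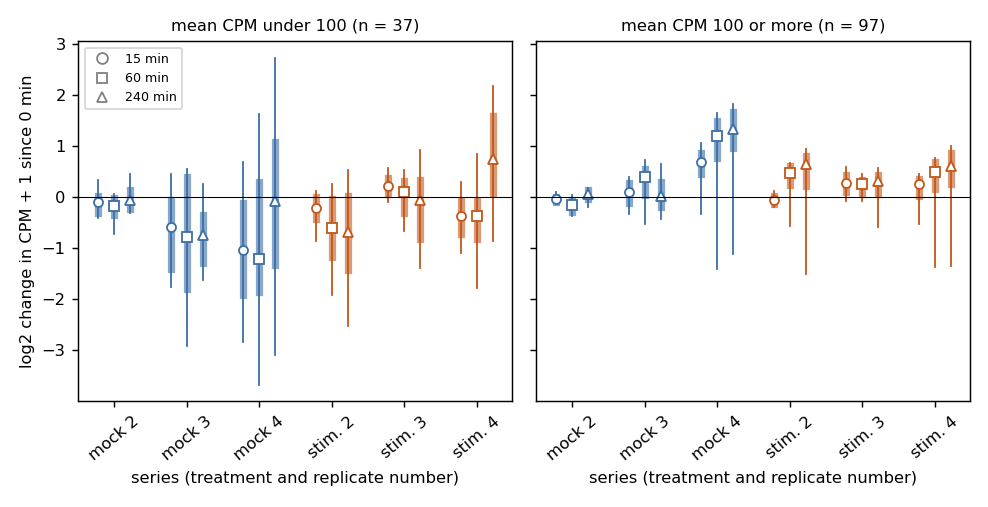
Change in log2(CPM + 1) since the 0 min library of the same treatment and replicate number (y axis) for each series (x axis) at 15, 60 and 240 min, for the 37 chloroplast features below (left) and the 97 at or above (right) a mean of 100 CPM. Symbols are medians over features, thick bars the middle 50% and thin lines the middle 80% of features, and mock replicate 4 has the highest medians on the right while mock replicate 2 stays near 0.

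The change after cordycepin was tested by regressing log counts on the labelled minutes. In mock, 0 of 134 members were called by edgeR, as were 0 of all 20812 features tested (0%), with a smallest adjusted p of 0.961. At an unadjusted p under 0.05 there were 3 members (2.24%), against 1.34% of all features, and DESeq2 called 0. The median slope of the members was 0.10 log2 units per hour. Among the 4 mock libraries with a high clock score alone, 67 members were called rising and 9 falling, on 2 residual degrees of freedom, against 12.1% of all 20548 features rising and 12.2% falling. These are replicate 3 at 0, 15 and 60 min and replicate 4 at 240 min, so the latest time is 1 library of another series. Among the mock libraries of low clock score, 0 members were called.

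In stimulus, 39 of the 130 members tested were called rising and 9 falling, with 12 and 4 of them from the pairs that share reads, against 9.01% of all 21130 features rising and 12.1% falling (21.1% in either direction). The median slope of the members was 0.11 log2 units per hour, and that of all features -0.01. Of the 39, 20 had a mean of 1000 CPM or more, 13 lay from 100 to 1000 CPM and 6 below. The 9 that fell had a mean of 100 CPM or more. These calls rested on few libraries. Without replicate 2 the count was 0, as it was for all 21045 features tested. Without replicate 3 it was 19 rising and 11 falling (6.14% and 9.43% of all features). Without replicate 4 it was 23 rising and 13 falling (8.63% and 11.5% of all features). With 0 to 60 min only, and among the stimulus libraries with a low clock score, it was 0, and among the 4 with a high score it was 0 rising and 1 falling. Of all features tested, 0 of 20690, 0 of 21569 and 1 of 20917 were called in these runs, in that order. On the scale of chloroplast features alone, 9 rose and 9 fell.

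Among members with a mean of at least 10 CPM, the largest called slopes upward were again in features without a description. Ribosomal RNA was removed from these libraries and its features were not identified, so an undescribed feature may be ribosomal RNA left by that removal. ATCG01210, which shares its reads evenly with another feature and is uncertain, was at 5.97, 7.68 and 8.65 CPM at 0 min and 17.5, 15.8 and 43.6 CPM at 240 min in stimulus replicates 2, 3 and 4. Its slope was 0.41 ± 0.09 log2 units per hour (SE, n = 12, edgeR adjusted p = 0.031). ATCG00630 was at 995, 949 and 1205 CPM at 0 min and 1647, 1676 and 4048 CPM at 240 min in stimulus. All its libraries at 240 min were above those at 0 min, with a slope of 0.29 ± 0.07 (SE, n = 12, edgeR adjusted p = 0.031), which was 0.18 without replicate 4. In mock it was at 1354, 2271 and 1426 CPM at 0 min and 1286, 1343 and 3350 CPM at 240 min, and the groups overlapped.

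Of the described members, ATCG00660, ATCG00670 and ATCG01310 were called rising in stimulus. ATCG00660 went from 214, 215 and 251 CPM at 0 min to 432, 354 and 655 CPM at 240 min, a slope of 0.23 ± 0.06 log2 units per hour (SE, n = 12, edgeR adjusted p = 0.032). ATCG00670 went from 2368, 2321 and 2481 CPM to 3888, 3103 and 4415 CPM, a slope of 0.15 ± 0.05 (SE, n = 12, edgeR adjusted p = 0.044). In mock, ATCG00670 was at 3164, 3449 and 2730 CPM at 0 min and 2928, 3298 and 7167 CPM at 240 min, so that replicate 4 alone was above the range at 0 min. ATCG01310 had a slope of 0.16 ± 0.04 (SE, edgeR adjusted p = 0.034), while ATCG00530, ATCG00750 and ATCG00430 had slopes of 0.13, 0.11 and 0.05 that did not pass. On the scale of chloroplast features alone, ATCG00660 and ATCG00630 were called rising, and ATCG00670, ATCG01310 and ATCG01210 were not.

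ATCG00200 and ATCG00240, chosen at a mean of at least 10 CPM for their falls at 0 min, also had low values late. ATCG00200 was at 86.0, 64.6, 67.3 and 75.1 CPM at 0, 15, 60 and 240 min in mock replicate 2, at 137, 49.5, 4.37 and 33.9 CPM in mock replicate 3, and at 79.7, 5.92, 1.21 and 1.38 CPM in mock replicate 4. In stimulus it was at 25.2, 21.7, 5.28 and 0.98 CPM in replicate 2, at 24.5, 43.4, 26.2 and 5.28 CPM in replicate 3, and at 18.6, 2.25, 0.35 and 2.30 CPM in replicate 4. Its values were low in the libraries in which the decline index was low, and high in mock replicate 2. The fitted slope was -0.75 ± 0.27 log2 units per hour in stimulus and -0.22 ± 0.29 in mock (SE, n = 12 each), and neither passed (edgeR adjusted p = 0.058 and p = 0.96). ATCG00240 was at 35.3 CPM at 0 min and 1.78 CPM at 60 min in mock replicate 4, against 33.7 and 16.3 CPM in mock replicate 2. In stimulus it ran from 12.9, 11.6 and 9.71 CPM at 0 min to 1.24, 4.62 and 4.18 CPM at 240 min, with a slope of -0.39 ± 0.17 (SE, n = 12, edgeR adjusted p = 0.10).

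**Figure D5:**
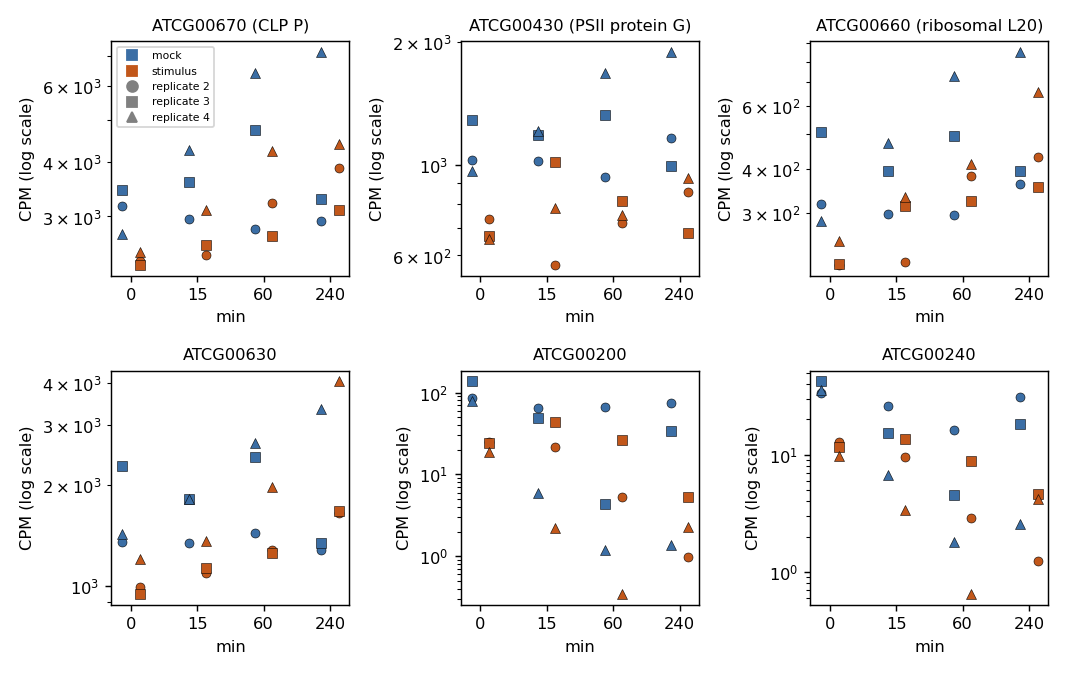
Level in CPM (y axis, log scale, a different range in each panel) of 6 chloroplast features in each library, by labelled minutes after cordycepin (x axis, evenly spaced), in mock (blue) and stimulus (orange), with symbols for the replicate number. At 0 min the stimulus libraries lie below the mock libraries in all 6 panels, and ATCG00200 and ATCG00240 are lowest in stimulus replicate 4 at 60 min.

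No difference in slope between treatments was found for a chloroplast transcript. The treatment by minutes term called 0 of 134 members and 0 of all 22006 features tested (0%) by edgeR, with a smallest adjusted p of 0.40 and a median difference of 0.01 log2 units per hour. At an unadjusted p under 0.05 there were 8 members (5.97%), all with a lower slope in stimulus, against 7.39% of all features in either direction, so this is no more than the background. DESeq2 called 0 members, and edgeR called 0 within the libraries of low and of high clock score. The members called in stimulus alone were therefore not shown to change differently from mock. For ATCG00630 the slope was 0.24 ± 0.12 log2 units per hour higher in stimulus (SE, edgeR adjusted p = 0.68), and for ATCG00200 it was lower, with a difference of -0.51 ± 0.40 (SE, edgeR adjusted p = 0.76).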

How the data were processed

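The deposited table holds raw read counts, whole numbers per feature and library, not scaled and with no libraries merged. Per the labels, reads were single, 50 cycles long and from stranded libraries. TopHat2, Bowtie2 and the build TAIR10 are named in the submitters' processing notes, and how reads in overlapping or duplicated genes were counted is not given in the sources used here. No coordinates or sequences are given, since the RefSeq tables (TAIR10.1) do not pair chloroplast genes with the identifiers of the count table. By locus tag, 37751 of 38194 features matched, all of them outside the chloroplast.

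Counts were tested with edgeR 4.0.16 (quasi-likelihood, robust, TMM library sizes, filterByExpr) in R 4.3.3, with DESeq2 1.42.0 as an alternative. All p-values are two-sided and were adjusted by Benjamini and Hochberg over all features tested. Abundance was compared over the 6 libraries of 0 min, and over all 24 with minutes as a factor. Slopes were fitted over 12 libraries of a treatment, and their difference over 24, with no correction for the decline of total RNA, so slopes are relative to the other RNA. CPM printed per library use TMM over 24 libraries. Shares of counts were compared by exact permutation within strata (SciPy 1.17.1). In simulated counts for the comparison at 0 min (20139 features), 10 of 56, 58 of 73 and 68 of 71 changes of 0.5, 1 and 2 (log2) were recovered, with 13 false calls. For slopes in stimulus (20881 features), 0 of 71, 5 of 68 and 37 of 60 changes of 0.1, 0.2 and 0.4 log2 units per hour were recovered. No other features were changed in the simulations, while 56.3% of all features were called at 0 min and 21.1% for slopes in stimulus. With few changed features the adjustment of p is stricter, so these recoveries do not carry over to the data. No replicate pair agreed within counting noise, with a chi-square per degree of freedom of 6.25 to 209 over 24 pairs for all features. For the chloroplast features alone, scaled to their own total, it was 207 to 15160.

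The members, the list of nuclear genes, the markers and the tests were chosen with earlier results of these data known. The planned naming rule worked by gene symbol and could not be applied to chloroplast features. Named instead, after their values were seen, were the 6 members described in reference notes, the 2 largest falls at 0 min and the 2 largest rises in stimulus among called members of at least 10 CPM, 1 of a pair of copies. Of the nuclear list, the sigma factors, the polymerases and the 3 of smallest p at 0 min (PTAC7, CRB and SIG2) are named, by RefSeq symbol. Alternatives were other scalings and filters, DESeq2, other time ranges, the replicate number as a block, and libraries left out.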

Additional observations from a re-analysis of the deposited data

How the results depend on the processing

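At 0 min, the count of chloroplast transcripts called (95) moved to 51 with total counts and to 24 on the scale of chloroplast features alone, and ran from 54 to 106 with replicates left out. Of all features, 24.2% were called lower in the run with the lowest count and 27.1% in that with the highest. Over 4 time points (106) the count moved to 37 and 6 under the same scalings and to 64 in libraries of low clock score, and ran from 57 to 89. Of all features, 23.6% were called lower in the run with 57 and 27.5% in that with 89. In mock, the count of slopes (0) moved to 76 in libraries of high clock score, an alternative chosen after seeing the data, and was 0 under every other one run. In stimulus (48) it moved to 18 on the scale of chloroplast features alone, 28 with no filter (7.73% of all features) and 75 with DESeq2 (33.6% of all features). It was 0 with 0 to 60 min only, and 0 and 1 in libraries of low and high clock score, and ran from 0 to 36 with replicates left out. Of all features, 20.1% were called in the run with 36, and no feature of any kind was called in the runs with 0. The cause was not tested. The rise in share from 0 to 240 min (3.61 points) ran from 1.90 to 4.73 with replicates left out, where the smallest exact p is 0.056, and was 1.99 without the 2 most abundant features. The lower share in stimulus ran from -7.68 to -5.85 points with replicates left out and kept its call in every alternative run but the 8 libraries of high clock score (-9.13 points), whose smallest exact p is 0.083.

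The replicate numbers met no rule for pairing: same-numbered deviations from group means correlated at -0.11 to 0.10 at 0 min, where 2 of 6 libraries correlated best with their own number. Over all pairs of groups they ran from -0.46 to 0.82, with 50 of 84 over 0.1, so some groups share deviations by number and others do not. With a replicate block the counts were 80 at 0 min, 111 over 4 time points and 72 for slopes in stimulus. They were 0 for slopes in mock and 0 for the difference in slope. Of all features, 53.2% were called at 0 min with this block, 57.5% over 4 time points and 34.2% for slopes in stimulus. The share of the 2 most abundant features, 2.67 points higher in stimulus, passed with the block (exact p = 0.036).

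On the scale of chloroplast features alone the sign turned at 0 min for ATCG00530 (0.15), ATCG00670 (0.13), ATCG00750 (0.40), ATCG01310 (0.21) and ATCG01210 (0.22). Over 4 time points it turned for ATCG00530 (0.088), ATCG00660 (0.068), ATCG00670 (0.13), ATCG00750 (0.16), ATCG01310 (0.069) and ATCG00630 (0.14), and for ATCG00200 in libraries of high clock score (0.22). With total counts it turned at 0 min for ATCG00750 (0.10) and SIGE (AT5G24120, 0.18), and with replicates left out these ran from -0.39 to 0.065 and from -0.23 to 0.10. The slope of ATCG00430 in stimulus was -0.013 with total counts, -0.060 on chloroplast features alone and -0.055 in libraries of high clock score. Over all named genes and the share of the 2 most abundant features, 464 alternatives kept direction and call, 85 lost the call, 17 gained it and 22 turned. A decay factor from presumed stable transcripts and shares without ribosomal RNA features were not run, since the features they need were not identified. Members with few counts limit the counts below 10 CPM.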
